A study of Mus musculus with 8 samples.

Results

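Crem and 9 genes of cyclic AMP signalling were described in Th17 cells that expressed either form of ROR-γt. The 10 listed genes were Crem, Creb1, Atf1, Pde3b, Pde4b, Pde4d, Ptger2, Ptger4, Adora2a and Prkaca, each taken as the row of that symbol, and all 10 were found among the 22829 genes of the table. All 10 had a mean of at least 10 over the 8 samples. Crem was selected on its difference between the groups in these same samples, in a fit without WT replicate 4, so its own difference is given as a description with no test. The other 9 genes were listed for their place in the pathway, but with earlier results of these data already known. The samples were 4 of cells reconstituted with wild-type ROR-γt (WT) and 4 of cells reconstituted with K187R-ROR-γt (K187R), in which the lysine that accepts SUMO is replaced by arginine. Both groups were Th17 cells from ROR-γt-/- mice, so the endogenous receptor was disrupted in WT samples too. According to the study's methods, CD4+ T cells of the spleen were purified on magnetic beads, transduced with lentivirus and cultured under Th17-polarizing conditions, and whether they were restimulated before RNA was isolated for RNA seq is not stated. The labels give no strain, age or time in culture, and do not say whether each sample came from an animal or culture of its own, and the series' design text speaks of mice where the methods describe transduced cells, so the p-values below measure only the spread between these samples.

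Cyclic AMP is made by adenylyl cyclases when a receptor coupled to the stimulatory G protein binds its ligand, in T cells mainly prostaglandin E2 or adenosine. It releases the catalytic subunits of protein kinase A (PKA), which phosphorylate CREB, CREM and ATF1 on the promoters of their target genes, and phosphodiesterases end the signal by hydrolysing it. CREM is made as activating and as repressing isoforms, among them the short repressor ICER that starts from an internal promoter, and in T cells it is known for its action on cytokine genes. A count per gene does not separate these isoforms.

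Between 52456804 and 74676721 reads per sample fell on genes. The values below are normalized counts, the reads of a gene divided by 1 size factor per sample, and 3 reads, taken as the smallest detectable count, correspond to between 2.54 and 3.56 of them. All 10 listed genes lay far above this floor in every sample. Over 16880 genes outside the pathway list, clustering put the samples into 3 sets that crossed the groups. WT replicates 1 and 3 clustered with K187R replicate 1 (set 1), and WT replicate 2 with replicates 2 and 3 of K187R (set 2). The replicates numbered 4 of both groups made up set 3. The defining markers of CD4 T cells and of Th17 cells were present in every sample. All 5 myeloid markers examined (Lyz2, Csf1r, Adgre1, Itgam and Cd68) were also above the floor in all 8 samples, with summed normalized counts of 20336, 49069, 20599 and 61225 in WT replicates 1 to 4 and of 35204, 42868, 46425 and 64257 in K187R. None of them was at 0. Most of each sum was Lyz2, at 17025, 42242, 17030 and 54522 in WT replicates 1 to 4 and at 30153, 35455, 38318 and 57778 in K187R. The summed B cell markers ranged from 165 to 789 in WT and from 190 to 927 in K187R. Those of CD8 T cells ranged from 403 to 1025 in WT and from 387 to 1141 in K187R. In both groups replicate 4 had the lowest B cell sum and the highest CD8 T cell sum. None of the 2 NK cell markers was above the floor in all samples. In bulk samples, fewer cells of a type and less RNA per cell cannot be told apart.

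Per kb of exon, Prkaca, Pde3b and Atf1 stood at the top of the 10 genes, with means over the 8 samples of 1931 ± 153, 1912 ± 280 and 1811 ± 152 normalized counts per kb (SD, n = 8). Creb1 followed at 752 ± 116 and Pde4d at 597 ± 132. The receptors formed a group with Ptger4 at 500 ± 65.3, Ptger2 at 473 ± 55.0 and Adora2a at 443 ± 68.4. Crem lay at 440 ± 211 and Pde4b at 321 ± 54.3. The lowest sample of Atf1, at 1612 per kb, was above the highest of Creb1, at 899 per kb. The ranges of every other pair of neighbours in this order overlapped. Crem ranged from 250.3 to 773 per kb, and the 4 highest samples were those of WT. The SD of the log2 normalized counts over the 8 samples was 0.66 for Crem and between 0.11 and 0.31 for the other 9 genes. The lengths were those of all exons in the annotation used, so a gene that uses few of its exons in these cells is placed too low.

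**Figure D1:**
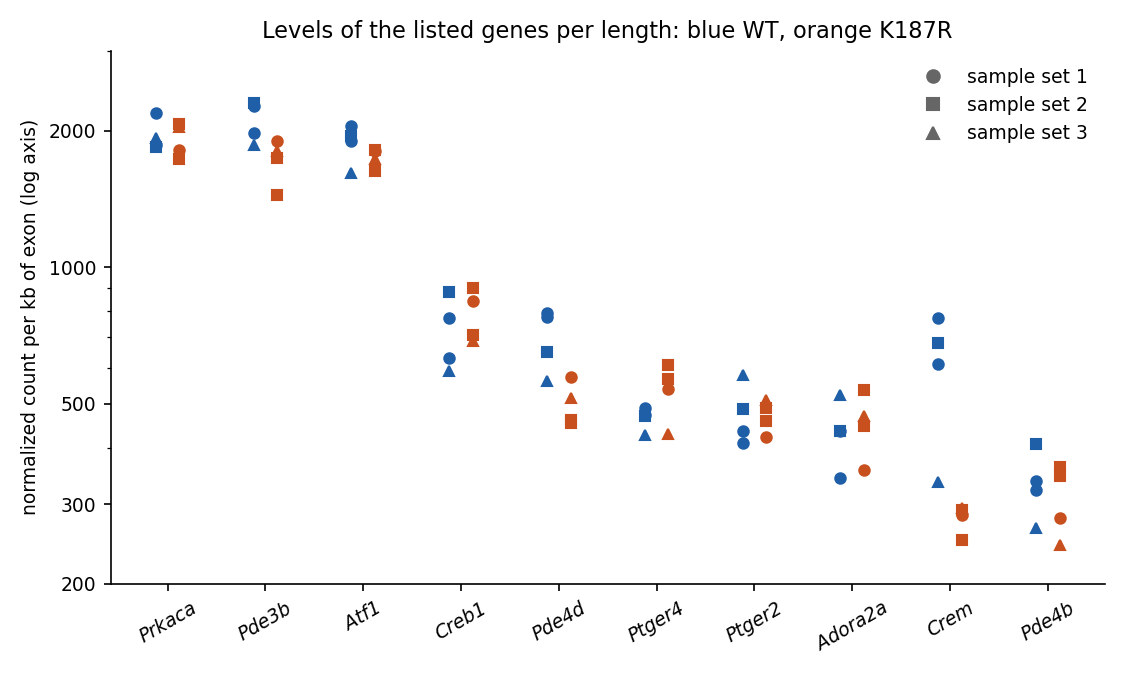
Normalized counts per kb of exon (log axis) of the 10 listed genes, ordered by their mean over the 8 samples, with WT in blue and K187R in orange and a symbol for each sample set. Prkaca, Pde3b and Atf1 lie above 1443 per kb in every sample, and no sample of the other 7 genes is above 899.

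Crem, the cyclic AMP responsive modulator, was lower in K187R than in WT. Its normalized count was 4557, 4013, 3605 and 1976 in WT replicates 1 to 4 and 1675, 1716, 1476 and 1736 in K187R replicates 1 to 4. The groups did not overlap, but WT replicate 4 lay much closer to the K187R samples than to the other WT samples. The means were 3538 ± 1112 in WT and 1651 ± 119 in K187R (SD, n = 4), a ratio of 0.467. On the log2 scale the difference was -1.04. Without WT replicate 4 it was -1.29. Taken within the sample sets, the difference was -1.27 and -1.33 in sets 1 and 2 but -0.19 in set 3, where 1 sample stands against 1. WT replicates 1 and 3, with high Crem, had the lowest summed myeloid markers, and WT replicate 4, with low Crem, had the highest of the WT samples, but WT replicate 2 had high Crem at a sum of 49069 and K187R replicate 1 had low Crem at 35204. The myeloid marker Csf1r was highest of the WT samples in replicate 2. WT replicate 4 also had the lowest summed B cell markers and the highest summed CD8 T cell markers of the WT samples. The part of myeloid, B or CD8 T cells in the Crem values was not tested. The gene lies at 3266048 to 3337748 of chromosome 18 on the minus strand of GRCm38, and 8.01% of its exonic bases overlap Gm6225 on the other strand. Whether the reads were counted by strand is not given in the sources used here.

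**Figure D2:**
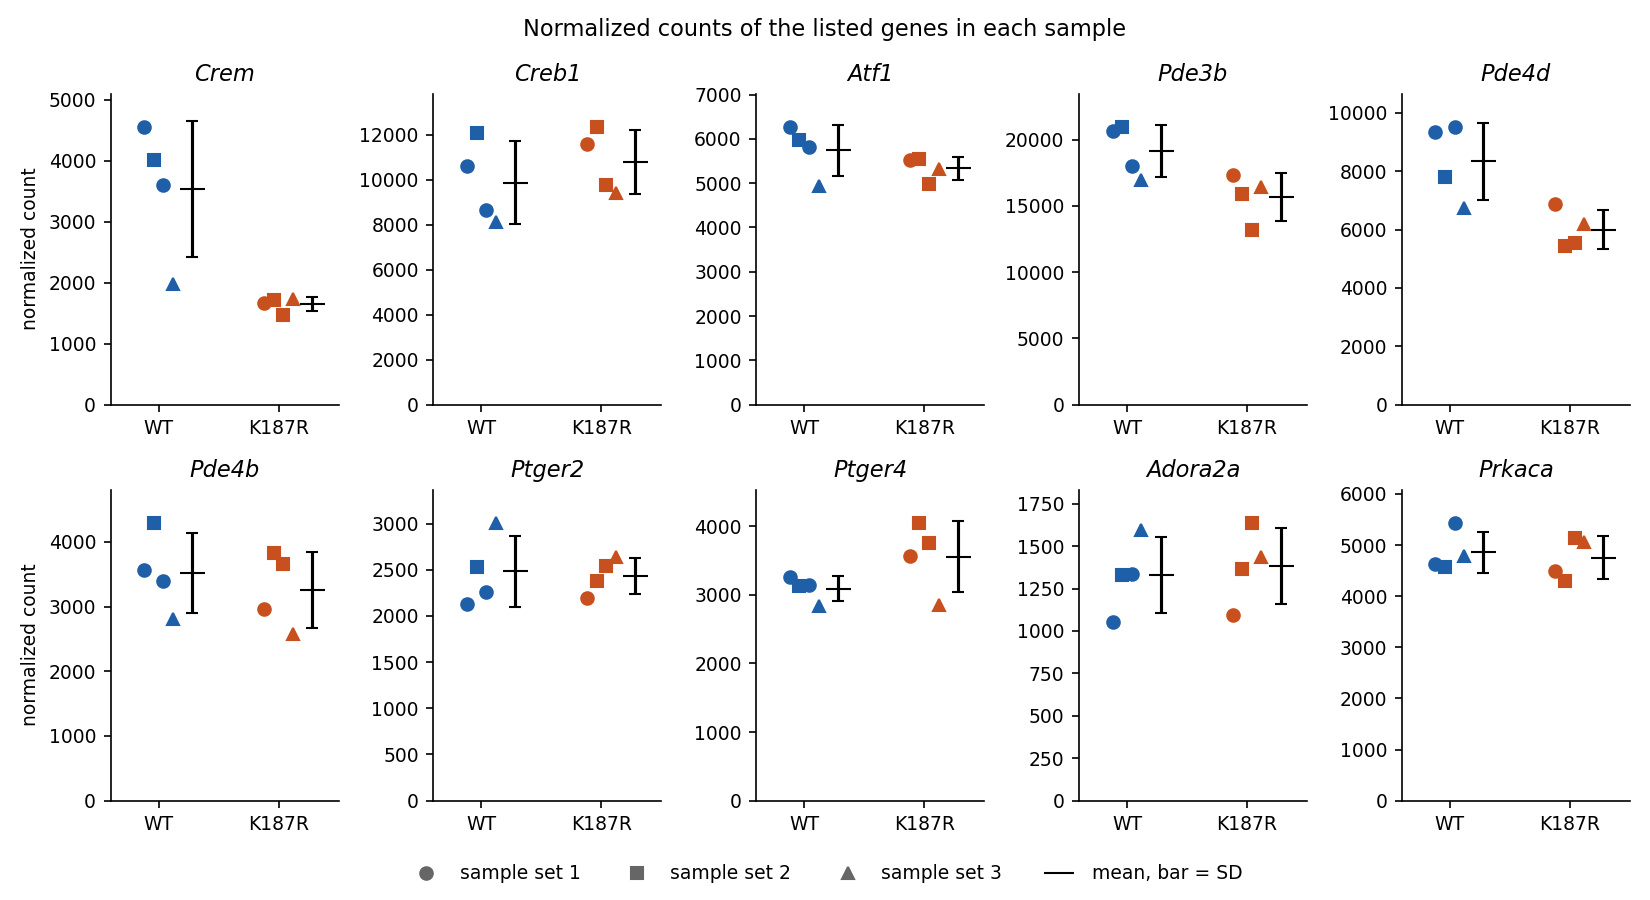
Normalized counts of the 10 listed genes in each sample, with WT in blue, K187R in orange, a symbol for each sample set, and the mean with SD (n = 4) beside each group. Crem is the only 1 of the 10 whose groups are separate, at 1976 and above in WT and at 1736 and below in K187R.

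The other members of the CREB family differed little between the groups. Creb1 encodes the activator CREB, and was counted at 10625, 12101, 8673 and 8126 in WT and at 11587, 12357, 9754 and 9422 in K187R. The groups overlapped, and in both of them replicates 3 and 4 were lower than replicates 1 and 2. K187R minus WT was 0.13 on the log2 scale, with a 95% interval from -0.18 to 0.45. Atf1, a close relative that dimerizes with CREB and CREM, was at 6272, 5965, 5815 and 4932 in WT and at 5520, 5542, 4987 and 5310 in K187R. Its log2 difference was -0.10, with an interval from -0.29 to 0.09, and the groups overlapped because WT replicate 4 was the lowest sample of all. Both intervals lie above -1.04, the value of Crem. As Crem was selected on that difference, this is a description and no test between the genes.

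None of the 9 genes other than Crem passed an adjusted p-value of 0.05 in limma, where their adjusted p-values ranged from 0.921 to 0.989. Pde3b and Pde4d, 2 of the 9, had an unadjusted p-value under 0.05 and were lower in K187R. Over all 16982 genes tested, 0% passed the adjusted threshold, 1.64% had an unadjusted p-value under 0.05 and were lower in K187R, and 2.75% had one and were higher. None of the 9 separated the groups completely, against 0.989% of all genes that were lower and 1.47% that were higher in K187R without overlap. edgeR's quasi-likelihood test and DESeq2 on the recovered reads also called 0 of the 9. Over all genes edgeR called 0 with 729 at an unadjusted p-value under 0.05, and DESeq2 called 27, or 0.193% of the genes it gave an adjusted p-value, with 886 unadjusted.

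The phosphodiesterases Pde3b and Pde4d had the largest differences among these 9 genes. Pde4d encodes an enzyme that hydrolyses cyclic AMP and is anchored near PKA in many cells. It was counted at 9329, 7792, 9520 and 6747 in WT and at 6861, 5425, 5530 and 6177 in K187R. Only K187R replicate 1 exceeded the lowest WT sample, and that sample was WT replicate 4. The means were 8347 ± 1318 and 5998 ± 664 (SD, n = 4). The log2 difference was -0.47 (SE 0.12, 95% interval from -0.75 to -0.19), with an unadjusted p of 0.00414 and an adjusted p of 0.921 in limma. The adjusted p was 0.945 in edgeR and 0.153 in DESeq2. Pde4d passed with the sample set as a term in DESeq2 (adjusted p = 0.00969) and not in limma with the same term. The sets were derived by clustering these same 8 samples and are uneven between the groups. Adjusted p-values with this term, here and for the genes below, can therefore be too small. Over all alternatives the adjusted p of Pde4d ranged from 0.00463 to 0.9999. Within the sets the difference was -0.46, -0.51 and -0.13.

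Pde3b encodes a phosphodiesterase of cyclic AMP that cyclic GMP inhibits. It was counted at 20691, 20972, 18032 and 16933 in WT and at 17318, 15874, 13155 and 16421 in K187R. As for Pde4d, K187R replicate 1 was the only sample of its group above the lowest WT sample, WT replicate 4. On the log2 scale K187R differed by -0.29 (SE 0.11, 95% interval from -0.53 to -0.05), with an unadjusted p of 0.0223 and an adjusted p of 0.921 in limma. Within sets 1 and 2 it was -0.16 and -0.54, and between the 2 samples of set 3 it was -0.04. Pde4b, which encodes the phosphodiesterase that limits cyclic AMP near the T cell receptor, was at 3568, 4293, 3399 and 2808 in WT and at 2956, 3829, 3653 and 2574 in K187R. Here the groups overlapped over most of their range and the lowest sample of each was replicate 4. Its log2 difference was -0.11, with an interval from -0.47 to 0.24. The sample sets held 82.3% of the sum of squares of its log2 values over the 8 samples and the groups 6.07%.

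None of the 3 listed receptors differed between the groups beyond the spread between samples. Ptger2 and Ptger4 encode the prostaglandin E2 receptors EP2 and EP4, and Adora2a encodes a receptor for adenosine. All are coupled to the stimulatory G protein. Ptger2 was counted at 2127, 2527, 2262 and 3007 in WT and at 2193, 2374, 2538 and 2638 in K187R. The groups lay over each other, with a log2 difference of -0.02 and an interval from -0.28 to 0.24. The samples of set 1 were the lowest and those of set 3 the highest, and the sets held 85.1% of its sum of squares against 0.322% for the groups. Adora2a was at 1052, 1330, 1334 and 1597 in WT and at 1092, 1363, 1637 and 1438 in K187R, and both groups again began with replicate 1 as their lowest sample. Its log2 difference was 0.06, with an interval from -0.29 to 0.40. The summed myeloid markers were also lowest in WT replicates 1 and 3 and highest in both replicates numbered 4. Lyz2, which is most of that sum, Itgam and Cd68 were highest there as well, but Csf1r and Adgre1 were highest in K187R replicate 3. The part of myeloid cells in the values of Ptger2 and Adora2a was not tested.

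Ptger4 was counted at 3255, 3128, 3140 and 2837 in WT and at 3572, 4049, 3758 and 2845 in K187R. Replicates 1 to 3 of K187R were above every WT sample, and K187R replicate 4 was within the WT range. The log2 difference was 0.19, its 95% interval from -0.05 to 0.44 held 0, and the adjusted p in limma was 0.921. Of the exonic bases of Ptger4, 16.5% overlap Ttc33 or Gm15937 on the other strand, and of those of Ptger2, 4.74% overlap Gm49364 or Gm17173. Prkaca encodes the catalytic subunit alpha of PKA. It was at 4637, 4569, 5435 and 4789 in WT and at 4501, 4302, 5146 and 5067 in K187R, with replicate 3 the highest of each group. The log2 difference was -0.03 with an interval from -0.23 to 0.16, the narrowest in width after that of Atf1.

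**Figure D3:**
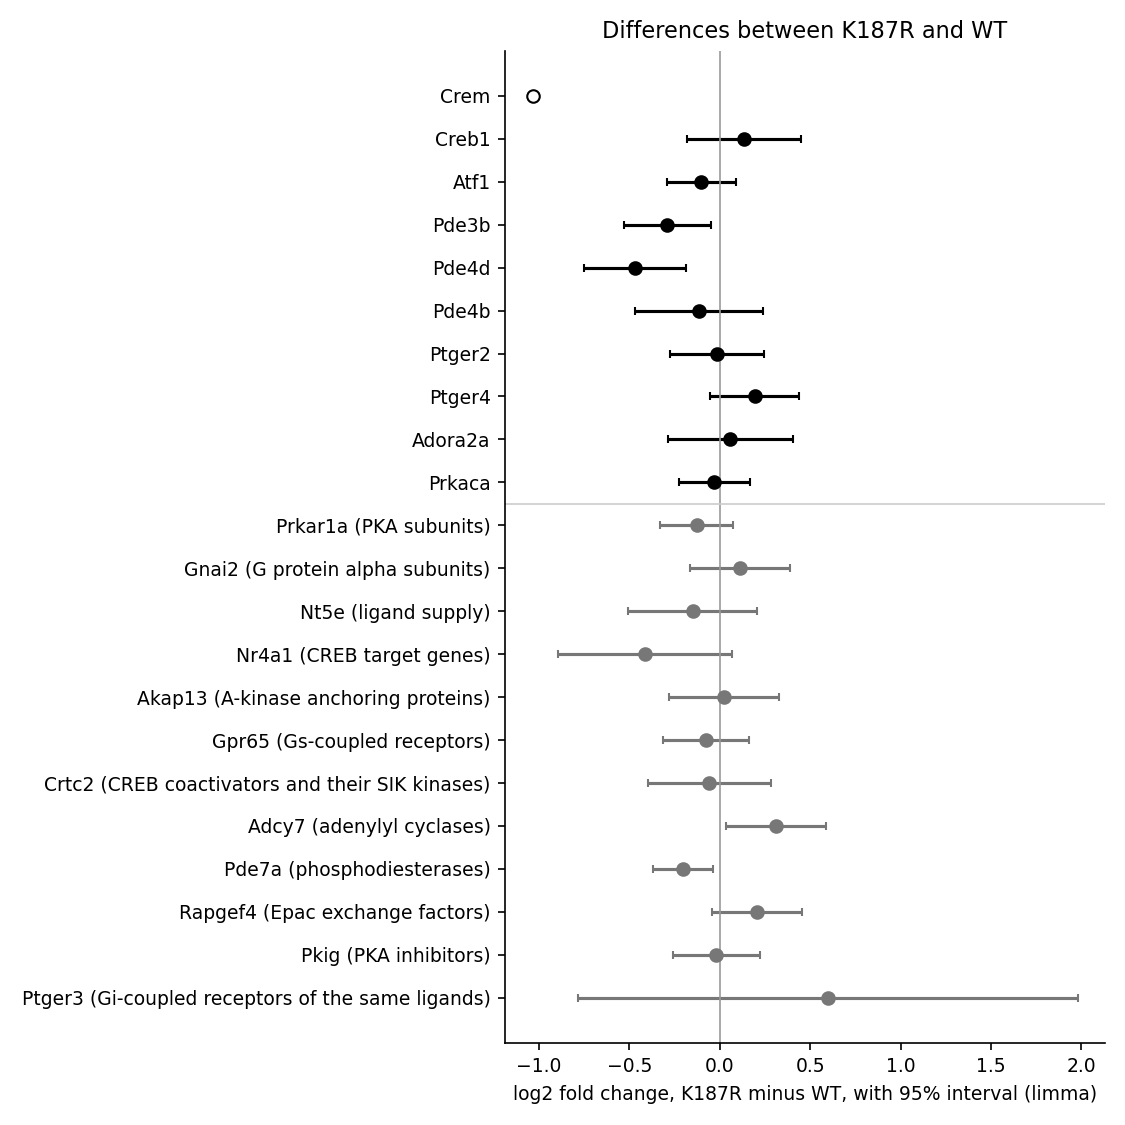
Log2 fold change of K187R minus WT with its 95% interval from limma for the 10 listed genes (black; Crem open and without an interval because it was selected on this difference) and, in grey, for the pathway gene with the highest level per kb in each role. The intervals of Pde3b, Pde4d and Pde7a lie below 0, that of Adcy7 lies above 0, and the others span 0.

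The rest of the pathway was read from a list of 83 further genes grouped by role. Of these, 79 were in the table and 70 had a mean of at least 10. The list was drawn up with earlier results of these data known. Of these 70, 30 were lower and 40 higher in K187R, with a median log2 difference of 0.04, beside 51.6% lower and a median of -0.01 over all genes tested. None passed the adjusted threshold in limma or edgeR. In limma 5 had an unadjusted p-value under 0.05 and were lower (Pde7a, Sik1, Nr4a2, Nr4a3 and Rgs2), and 3 were higher (Ptgir, Hrh2 and Adcy7), beside 1.64% and 2.75% of all genes. Without overlap between the groups 2 were lower, Nr4a2 and Sik1, and 1 was higher, Akap5, beside 0.989% and 1.47% of all genes, so the count of higher genes is near the background. Apart from Pde7a and Adcy7, which had the highest level per kb of their roles outside the 10 listed genes, these genes were singled out after their values were seen.

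Upstream of cyclic AMP, the most abundant gene of each role had an interval that held 0, other than Adcy7. Nt5e, which encodes the ectoenzyme CD73 that makes adenosine, ranged from 65524 to 87137 in WT and from 52867 to 86480 in K187R, with a log2 difference of -0.15 (95% interval from -0.51 to 0.21). Gpr65, a proton-sensing receptor coupled to the stimulatory G protein, had -0.08 (from -0.31 to 0.16), and Gnai2, the inhibitory G protein subunit, had 0.11 (from -0.17 to 0.39). Ptger3, the inhibitory receptor for prostaglandin E2, was low, between 23.8 and 147 normalized counts, and its interval from -0.79 to 1.98 allows a large change in either direction. Of the 11 receptors coupled to the stimulatory G protein that were tested, the listed ones included, 8 were higher in K187R, with a median log2 difference of 0.19. Ptgir, the prostacyclin receptor, was at 379, 587, 463 and 571 in WT and at 582, 848, 913 and 658 in K187R, a log2 difference of 0.58 (SE 0.19, adjusted p = 0.921 in limma), and only K187R replicate 1 lay below the highest WT sample. It passed in DESeq2 with the sample set as a term and in no limma or edgeR fit. Hrh2, the histamine H2 receptor, was at 175, 366, 186 and 275 in WT and at 316, 516, 623 and 261 in K187R, and its samples stood high and low much as those of the myeloid marker Csf1r, at 1986, 4220, 1974 and 2598 in WT and at 2782, 4508, 5074 and 2423 in K187R. In K187R replicate 4, the lowest of its group for Hrh2 and Csf1r, the myeloid markers Lyz2, Itgam and Cd68 were the highest of theirs. Adgre1 was highest in K187R replicate 3, as Hrh2 was. The part of myeloid cells in the receptor values was not tested. Hrh2 had a log2 difference of 0.75 (SE 0.32) and Adcy7, an adenylyl cyclase of blood cells, one of 0.31 (SE 0.12). Neither passed, with adjusted p-values of 0.921 in limma, and in set 3 both were lower in the K187R sample, by -0.07 and -0.14 on the log2 scale.

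Between cyclic AMP and CREB, the most abundant gene of each role outside the listed genes had an interval that held 0, other than Pde7a. Prkar1a, a regulatory subunit of PKA and its most abundant gene per kb, had a log2 difference of -0.13 (95% interval from -0.33 to 0.07). Pkig, a PKA inhibitor, had -0.02, Akap13, an anchoring protein, 0.02, Rapgef4, an exchange factor that cyclic AMP activates directly, 0.20, and Crtc2, a CREB coactivator, -0.06, all with intervals that held 0. Pde7a, a further phosphodiesterase, was lower in each of the 3 sets, by -0.19, -0.29 and -0.19, and its log2 difference was -0.20 (95% interval from -0.37 to -0.04, adjusted p = 0.921 in limma). Of the 14 phosphodiesterases tested, 6 were lower and 8 higher in K187R, and the 3 with an unadjusted p-value under 0.05 were Pde3b, Pde4d and Pde7a. Akap5, another anchoring protein, was low, from 21.4 to 24.0 in WT and from 26.0 to 35.8 in K187R.

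Promoter sequences of RefSeq (GRCm38.p6) were searched for the cyclic AMP response element, the site that CREB, CREM and ATF1 bind, in the 250 bases before the start of transcription. The half-site was TGACG, or CGTCA on the other strand, and the full site was TGACGTCA, which contains the half-site on both strands. Of all 32851 promoters, 17.8% held a half-site, 0.137% held at least 4 matches and 1.55% held the full site. Crem, Pde3b, Adora2a and the target Egr1 were not searched. Of the 10 listed genes 7 were searched, with 11 promoters, and 3 of these held a half-site, 1 each of Prkaca, Atf1 and Pde4b. In the windows of Creb1, Pde4d, Ptger2 and Ptger4 these letters did not occur. Of the 10 CREB targets 9 were searched and all 9 held a half-site in at least 1 promoter. Nr4a1, Nr4a2 and Nr4a3 held 4 matches each, and Areg and Dusp1 held the full site. A list of CREB targets favours genes with the site that CREB binds, so this count is no test. The search, its window and the stretches shown were chosen after the differences and match counts were seen, and a match is a description of letters, not of binding. The stretches around the matches are shown for the 3 CREB targets with an unadjusted p-value under 0.05 and for the 3 listed genes with a match, 5′ to 3′ on the strand of the gene, with the half-sites in capitals.
Nr4a2 (chr2:57124090-57124223, minus strand): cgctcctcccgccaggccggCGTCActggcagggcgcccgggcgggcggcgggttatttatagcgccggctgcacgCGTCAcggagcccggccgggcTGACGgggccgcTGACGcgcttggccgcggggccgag
Rgs2 (chr1:144004192-144004354, minus strand): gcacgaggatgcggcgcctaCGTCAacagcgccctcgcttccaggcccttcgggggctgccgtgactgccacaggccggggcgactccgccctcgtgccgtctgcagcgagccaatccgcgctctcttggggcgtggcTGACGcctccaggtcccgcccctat
Nr4a3 (chr4:48045055-48045182, plus strand): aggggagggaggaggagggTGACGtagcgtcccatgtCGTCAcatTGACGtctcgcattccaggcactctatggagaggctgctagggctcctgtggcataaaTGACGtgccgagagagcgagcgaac
Prkaca (chr8:83972838-83972977, plus strand): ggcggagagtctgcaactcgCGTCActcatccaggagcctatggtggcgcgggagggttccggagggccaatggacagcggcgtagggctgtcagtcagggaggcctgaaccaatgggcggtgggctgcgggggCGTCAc
Atf1 (chr15:100227749-100227793, plus strand): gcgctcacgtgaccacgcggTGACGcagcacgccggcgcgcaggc
Pde4b (chr4:102421501-102421545, plus strand): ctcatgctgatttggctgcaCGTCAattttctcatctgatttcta
Matches were also found upstream of pathway genes whose difference between the groups was small. In 1 of its promoters Prkar1a held 3 half-site matches, counting those inside its full site, at a log2 difference of -0.13. Akap11 and Sik3 held 3 half-sites at -0.06 and -0.17, and Dusp1 held 3, counting those inside its full site, at -0.05.

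The genes listed as CREB targets were lower in K187R more often than not. Of the 10 tested, 9 were lower and only Egr1 was higher, with a median log2 difference of -0.43, and 3 had an unadjusted p-value under 0.05, Nr4a2, Nr4a3 and Rgs2. None passed in limma, and DESeq2 called 1, Nr4a2, with the limit on its false calls given above. Over all genes 51.6% were lower, 1.64% were lower at an unadjusted p-value under 0.05 and DESeq2 called 0.193%. The list was drawn up with earlier results of these data known. Its genes were counted in the same 8 samples, so the 10 are not separate observations and their number is no test. These values do not separate cyclic AMP signalling from T cell activation, and whether the cells were restimulated is not stated. Nr4a2, an orphan nuclear receptor induced by activation, was counted at 3116, 2463, 3076 and 2768 in WT and at 1914, 2049, 1954 and 2289 in K187R. The groups did not overlap. The log2 difference was -0.47 (SE 0.10), with an adjusted p of 0.921 in limma, 0.70 in edgeR and 0.0170 in DESeq2, and it was -0.69, -0.30 and -0.27 within the 3 sets. Rgs2, a regulator that shortens G protein signals, was at 1790, 1746, 1769 and 1447 in WT and at 1100, 1100, 1181 and 1449 in K187R. In set 3 the WT and K187R samples were level, and within sets 1 and 2 the difference was -0.69 and -0.62. Its log2 difference over all samples was -0.49 (SE 0.12, adjusted p = 0.921 in limma), and it passed in DESeq2 with the sample set as a term.

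Nr4a3 was at 12477, 7676, 11285 and 6865 in WT and at 7454, 7206, 6490 and 6034 in K187R. Its log2 difference was -0.45 (SE 0.18, adjusted p = 0.921 in limma), and the 2 high WT samples were those of set 1. Nr4a1, the most abundant target per kb, was at 15434, 9302, 18214 and 17919 in WT and at 11296, 8721, 11413 and 13260 in K187R, a log2 difference of -0.41 with an interval from -0.89 to 0.07. It was lower within sets 1 and 3, by -0.57 and -0.43, and higher within set 2, by 0.10. Fosb, an AP-1 subunit, had the largest difference of the 10 at -0.75, with an interval from -1.52 to 0.02, and it was lower by -1.17 in set 1, by -0.10 in set 2 and by -0.55 in set 3. It did not pass in limma, edgeR or DESeq2, and did in DESeq2 with the sample set as a term. Sik1 encodes a kinase that holds the CRTC coactivators in the cytoplasm and is itself induced through CREB. It was at 2020, 1621, 2238 and 1950 in WT and at 1443, 1408, 1607 and 1398 in K187R, which are separate by a narrow gap between WT replicate 2 and K187R replicate 3. Its log2 difference was -0.41 (SE 0.11, adjusted p = 0.921 in limma).

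**Figure D4:**
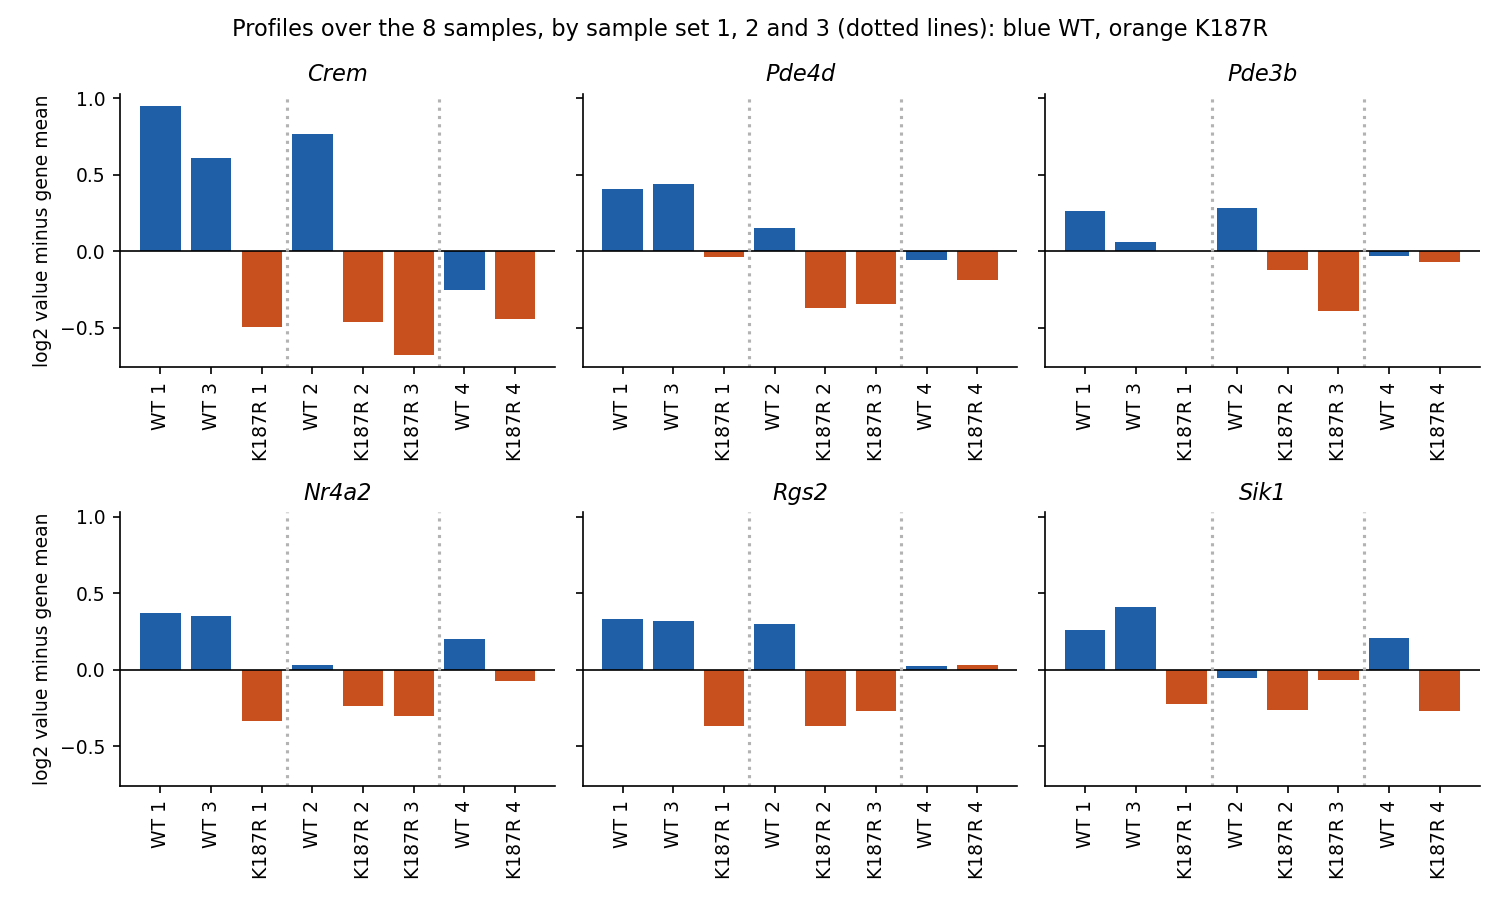
Log2(normalized count + 1) of 6 genes in each sample minus the gene's mean over the 8 samples, with samples ordered by sample set (dotted lines between sets), WT in blue and K187R in orange. The genes were picked after their values were seen. Crem, Pde4d, Pde3b and Rgs2 have their difference in sets 1 and 2 and little in set 3, where Crem differs by -0.19 and Rgs2 by 0.00, while Nr4a2 and Sik1 are lower in the K187R sample of set 3 as well.

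The genes with the profile most like that of Crem over the 8 samples were P2ry10, Gm17040, Gm5566, Gm43124 and Rnf125. Likeness was the root mean square difference of the centred log2 values over the 8 samples, and the smallest of 16981 genes were 0.169, 0.222, 0.232, 0.235 and 0.244, beside a median of 0.656 and a root mean square of 0.616 of the Crem values about their own mean. P2ry10, a G protein-coupled receptor for lysophospholipids on the X chromosome, was at 15395, 13906, 11475 and 6508 in WT and at 7237, 7667, 5238 and 6053 in K187R. WT replicate 4 was low in it as in Crem. Rnf125, a ubiquitin ligase, was at 3452, 3341, 3260 and 1869 in WT and at 1823, 2024, 1930 and 1660 in K187R, again with WT replicate 4 near the K187R samples. Gm17040, Gm5566 and Gm43124 were low, between 7.37 and 29.7 normalized counts in all samples. Within the pathway the nearest were Pde4d at 0.377, Rgs2 at 0.384 and Nr4a3 at 0.384, at ranks 64, 75 and 76, while Creb1 stood at 0.639 and rank 7712. The sample values share libraries and depth, and a rule that compares them with Crem finds genes with its difference.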

How the data were processed

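RNA seq was compared between 4 WT and 4 K187R samples. The authors trimmed reads with Cutadapt, aligned them to GRCm38 with HiSat2, and used featureCounts with the GENCODE M15 annotation for counting and DESeq2 for testing. They deposited a signal (normalized count) for each gene, its reads over 1 size factor per sample. The reads were recovered from them by dividing by the value of 1 read, and 100% were whole within 0.01 of a read. Their totals per sample set the counting error, which is small for the listed genes.

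The main test was limma (lmFit and eBayes with trend) on log2(normalized count + 1). It covered the 16982 genes whose mean reached 10, with Benjamini-Hochberg adjustment over all of them and a threshold of 0.05. Fold changes are on that log2 scale. Other settings tried were a pseudocount of 0.5 or 5, a filter at a mean of 50 or none, quantile normalization, edgeR with TMM, DESeq2, the replicate number as a block, the sample set as a factor, and leaving out each sample. DESeq2 was run on all 22829 genes with its own filtering, so its alternative differs from limma in the genes entered as well. Sets were cut at 3 from average linkage clustering of the samples. Methods were tested on simulated data, where DESeq2 made more false calls than the bound set for limma and edgeR and was exempted from it. The simulated samples were independent and had no sample sets, so they do not give the rate of false calls in these data.

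Groups come from the labels. The members, pathway list and marker lists were chosen with earlier results of these data known. Genes named are the members, the non-member with the highest level per kb in each role, pathway genes past the threshold, the 5 profiles nearest to Crem and the markers. A result that the rule also covers is not reported here. Others are named after their values were seen. Coordinates and exon lengths are of GENCODE M21 on GRCm38, used in place of M15 (22784 identifiers found, 45 not). No column was left unused. Tables and figures were made in Python 3.11.15 with matplotlib 3.10.9, pandas 2.3.3, numpy 2.4.6 and scipy 1.17.1, and fits in R 4.3.3 with DESeq2 1.42.0, edgeR 4.0.16 and limma 3.58.1.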

Additional observations from a re-analysis of the deposited data

How the results depend on the processing

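Over 19 alternatives, no direction changed for Crem, Creb1, Atf1, Pde3b, Pde4b, Pde4d and Ptger4. The log2 difference of Crem ranged from -1.29 to -0.89, that of Pde4d from -0.57 to -0.39 and that of Pde3b from -0.35 to -0.21. Those of Pde4b, from -0.217 to -0.00796, and of Creb1, from 0.0466 to 0.238, came near 0. Within the sample sets, Creb1 was lower in K187R in set 2 (-0.14) and Atf1 higher in set 3 (0.11), against their direction over all samples. For Crem, which was selected on this difference, the values are a description. Near 0, the sign turned for Ptger2 with quantile normalization (0.00516), and for Ptger2, Adora2a and Prkaca when samples were left out 1 at a time, with ranges from -0.0870 to 0.0795, from -0.0483 to 0.167 and from -0.0713 to 0.0233. Adora2a also turned with the sample set in limma (-0.0227) and DESeq2 (-0.0256).

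Of all genes limma called 0 (746 at an unadjusted p under 0.05) and edgeR 0. DESeq2 called 27 (15 higher and 12 lower), limma with the sample set 1 and DESeq2 with the sample set 143 (106 higher and 37 lower). Leaving out each sample gave 0 to 4 calls, the 4 of them without WT replicate 4. Of the 9 genes other than Crem, 1 was called with DESeq2 and the sample set, Pde4d. Of the pathway genes DESeq2 called 1, Nr4a2, and with the sample set 4, Ptgir, Fosb, Nr4a2 and Rgs2. The sets were derived from these same samples, so a fit with them as a term can give too many calls. The cause of these differences between tools was not tested.

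Samples with the same replicate number deviated from their group means with correlations of 0.59, 0.66, -0.09 and 0.63, so the numbers did not meet the requirement set for pairing. With the replicate block limma called 0 genes (2046 at an unadjusted p under 0.05). DESeq2 with the block called 175 genes (118 higher and 57 lower), 1 of the 9 genes, Pde4d, and 7 pathway genes, Ptgir, Sik1, Fosb, Nr4a1, Nr4a2, Nr4a3 and Rgs2.

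Depth did not limit the listed genes, whose counts lay far above the smallest detectable. With 2 samples, set 3 has no replicate of its own.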
